A study of Mus musculus with 27 samples.

Results

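The genes described here encode 8 surface molecules by which macrophages signal to T cells or report their own activation: Cd80, Cd86, Icosl, Cd274, Pdcd1lg2, Cd40, Cd83 and Cd69. They were picked by the gene name that the array file of naive replicate 1 gives each probe, which found all 8 genes with 11 probes, out of 32138 named genes and 55681 probes. RNA was measured on single-colour Agilent arrays in mouse bone marrow derived macrophages (BMDM), grown for 7 days from the marrow of female C57BL/6 mice aged 6 to 8 weeks in medium conditioned by L929 cells, a fibroblast line that secretes M-CSF. The 9 groups were naive cells that received no ligand, cells exposed for 4 h to a ligand (acute), and cells pretreated for 24 h, washed, rested and exposed again to the same ligand for 4 h (re-stimulated). The ligands were LPS at 100 ng/ml, which is sensed by TLR4, Pam3CSK4 at 100 ng/ml, sensed by TLR2 with TLR1, Poly(I:C) at 10 µg/ml, sensed by TLR3, and the oligonucleotide CpG, sensed by TLR9. The labels give CpG as 100 µM and the methods give another concentration, so its dose is uncertain. Values exist for 25 of the 27 arrays, with 2 arrays each for re-stimulated LPS and acute Pam3CSK4 and 3 for each other group. All cultures came from 1 mouse strain and were studied in vitro.

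T cell activation needs a costimulatory signal beside antigen. CD80 and CD86 give it through CD28 and are removed or bound by CTLA-4, and ICOS ligand (Icosl) gives a related signal through ICOS. PD-L1 (Cd274) and PD-L2 (Pdcd1lg2) bind PD-1 and restrain T cells. CD40 is a TNF receptor family member through which helper T cells signal back to the macrophage. CD83 holds MHC class II and CD86 at the surface of antigen-presenting cells, and CD69 is an early activation antigen that retains cells in tissue by binding the sphingosine phosphate receptor S1PR1. Macrophages raise many of these molecules after Toll-like receptor signals, and repeated exposure to LPS is known to blunt a part of that response, a state called tolerance.

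The probes decide what can be read. Each is 60 bases long, and the opening 30 bases, with mm9 positions from the array files, are shown for Cd80 and Pdcd1lg2, whose probe pairs gave the results that need them. The Cd80 probes lie on the same transcript, at bases 1457 and 872, start 585 bases apart in it and share no base.
Cd80, A_55_P2001218, chr16:38486772-38486831, plus strand: aaaggagaggtgcctagtcttactgcaact
Cd80, A_66_P130432, chr16:38479343-38479402, plus strand: ttcaatacgactcgcaaccacaccattaag
Pdcd1lg2, A_55_P2122075, chr19:29545470-29545529, plus strand: atcctggcagcctctgaagttctaattaac
Pdcd1lg2, A_55_P2187141, chr19:29545473-29545532, plus strand: ctggcagcctctgaagttctaattaactgg
The Pdcd1lg2 probes overlap by 57 bases and so are nearly a repeat of each other, while the Cd80 probes are separate measurements. Icosl also has 2 probes, of which A_55_P2172106 was well above background on 0 of 25 arrays and is not used. For each gene with several probes the one with the highest mean stands for the gene: A_55_P2001218 for Cd80, A_55_P2122075 for Pdcd1lg2 and A_51_P520966 for Icosl.

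Cd274 and Pdcd1lg2, both ligands of PD-1, are neighbours on chromosome 19, and their transcription start windows in RefSeq lie 43481 bases apart (GRCm38.p6, plus strand). The 250 bases before each start are given because the products bind the same receptor and the results below take the genes in turn. Both strands were searched for the interferon-stimulated response element (GAAA, any 2 bases, GAAA), an NF-kB site (GGG, any 3 bases, TTCC), the GAS element (TTCNNNGAA) and the AP-1 site (TGANTCA). Neither window holds a match to these patterns as written, so no letter is in capitals.
Cd274, chr19:29367188-29367437: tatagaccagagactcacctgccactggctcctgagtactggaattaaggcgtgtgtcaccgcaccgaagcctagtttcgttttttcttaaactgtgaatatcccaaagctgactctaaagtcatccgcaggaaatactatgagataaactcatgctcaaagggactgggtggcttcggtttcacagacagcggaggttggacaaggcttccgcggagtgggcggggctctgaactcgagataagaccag
Pdcd1lg2, chr19:29410669-29410918: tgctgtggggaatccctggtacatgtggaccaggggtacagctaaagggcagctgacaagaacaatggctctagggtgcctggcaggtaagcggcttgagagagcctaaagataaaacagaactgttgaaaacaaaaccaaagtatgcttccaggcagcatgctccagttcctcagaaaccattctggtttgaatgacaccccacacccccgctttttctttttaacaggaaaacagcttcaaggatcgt
Of 32851 RefSeq promoter windows of this length, 2.98% hold the interferon-stimulated response element as written, 4.65% the NF-kB site, 7.02% the GAS element and 6.75% the AP-1 site. The table held windows for 4 of the 8 genes, and the Cd80 window alone of these has a match, an AP-1 site 42 to 36 bases before the start. The absence of a match says only that these letters are not in these windows. Other forms of these sites were not searched.

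All 8 macrophage markers tested were well above background on every array, with a mean log2 signal of 14.5 to 15.4. Granulocyte markers were not uniform. Over 9 granulocyte and mast cell markers the mean log2 signal was 8.44 to 11.0 on the 15 arrays of replicates 1 and 2 outside acute LPS, 4.99 to 6.45 on the 7 arrays of replicate 3, and 4.93 to 5.39 on the 3 acute LPS arrays. S100a9, an abundant neutrophil protein, ranged from 14.3 to 17.6, from 4.57 to 8.08 and from 2.69 to 3.29 in these 3 sets. Not every member followed this. Elane was at 11.08 to 12.73 and well above background on all 25 arrays. Mpo, at 3.22 to 11.47, 2.14 to 3.61 and 3.92 to 6.20 in the 3 sets, overlapped between the first and the others. Camp, at 10.57 to 13.93, 6.08 to 10.79 and 5.98 to 6.82, overlapped between the first and the second. The means of the B cell, T and NK cell and erythroid and stromal lists stayed between 3.79 and 5.91, and that of the dendritic cell list between 5.95 and 7.85. Within the dendritic cell list, Siglech (14.86 to 16.90) and Itgax (9.86 to 13.72) were well above background on all 25 arrays. Zbtb46 (3.11 to 10.67) was on 24 and Ccr7 (3.07 to 11.82) on 21, while Flt3 was on 10, Clec9a on 3, Cd209a on 1 and Xcr1 on 0. The part of dendritic cells in the results was not tested. Within the T and NK cell list of 8 genes, Cd4 (10.77 to 11.88), Cd3e (9.10 to 10.79) and Lck (4.48 to 10.67) were well above background on all 25 arrays, while Cd3d was on 1, Cd3g on 2, Cd8a on 1, Ncr1 on 6 and Klrb1c on 0, and the part of T or NK cells in the results was not tested. Slide and replicate number are the same thing for all groups but acute LPS, whose arrays lie on 3 slides of their own, were scanned on other days and were read with an earlier design file. Stimulus and slide therefore cannot be told apart in any comparison with acute LPS. Naive replicate 3 had 74.9% of its probes well above background, against 43.1% to 55.0% on the other 24 arrays. The part of granulocyte RNA in the results was not tested. In these bulk cultures fewer cells of a type cannot be told apart from less RNA per cell.

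Acute LPS gave calls in 7 of the 8 genes, more than any other acute stimulus. This was also the acute comparison with the largest share of all probes called, and its LPS arrays lie on slides of their own. Cd69, Cd40, Cd274, Cd86, Cd83 and Icosl rose. Cd80 fell in the probe that stands for it and was called higher in its second probe. Of all 29933 probes tested, 26.5% were called in this comparison (13.2% higher and 13.2% lower). In the fit over all 9 groups, acute LPS against acute Poly(I:C) was called in Cd80 alone of the 8. A call needs an adjusted p below 0.05 in limma (Benjamini-Hochberg over all probes tested) and a difference of at least 1.5-fold. Acute CpG raised 3 of 8 (Cd40, Icosl and Cd69), against 5.72% of all probes called (3.09% higher, 2.63% lower), and acute Poly(I:C) 3 of 8 (Cd40, Cd274 and Cd69), against 6.03% (3.8% higher, 2.23% lower). Acute Pam3CSK4, with 2 arrays, gave 0 calls among the 8 and 0% of all probes, although 3458 of 27843 probes had an unadjusted p below 0.05, and 1 fit over all 9 groups called Cd40, Icosl and Cd69. The median log2 difference of the 8 genes was 2.86 after acute LPS, 1.77 after CpG, 1.04 after Pam3CSK4 and 1.94 after Poly(I:C), beside medians over all tested probes of -0.01, -0.07, 0.01 and -0.10.

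On re-stimulation with LPS, 5 of the 8 were lower than after the acute exposure (Cd69, Cd83, Cd40, Icosl and Cd274) and Pdcd1lg2 was higher, while 34.2% of all probes were called (17.2% higher, 17% lower). CpG re-stimulation lowered Cd83 and Icosl (all probes 3.56%, with 1.85% higher and 1.71% lower), of which Cd83 alone was called with the replicate number as a block, Poly(I:C) re-stimulation lowered Cd69 (all probes 4.93%, with 2.31% higher and 2.62% lower), and Pam3CSK4 gave 0 calls (all probes 0%, with 3461 of 25430 probes at an unadjusted p below 0.05). Against naive cells, re-stimulated CpG differed in 6 genes, 4 higher and 2 lower, while 13.1% of all probes were called (6.65% higher, 6.45% lower). Poly(I:C) differed in 5 genes, 4 higher and 1 lower, beside 9.03% of all probes (4.79% higher, 4.23% lower). LPS differed in 3, 2 higher and 1 lower, beside 5.66% (3.27% higher, 2.39% lower). Pam3CSK4 lowered Cd83, which was not called with the replicate block, beside 5.36% (2.61% higher, 2.74% lower). The re-stimulated LPS arrays share slides 1 and 2 with naive replicates 1 and 2, and with the replicate number as a block 6 genes were called, with Cd40, Cd86 and Cd69 added. The re-stimulated LPS count was 0 without naive replicate 1 or 2 or either of its own arrays, and 8 without naive replicate 3. The re-stimulated Pam3CSK4 count was 0 without naive replicate 1 or 2 or its own replicate 1 or 2, and 5 without naive replicate 3. Median scaling, under which the median difference over all probes was 0.11 to 0.78 in place of -0.10 to 0.06, moved the split of higher and lower calls to 6 and 0 for acute LPS. On re-stimulation against acute it gave 0 and 3 with LPS and 1 and 3 with CpG. Against naive it gave 4 and 0 with LPS, 5 and 0 with CpG, 3 and 1 with Pam3CSK4 and 5 and 0 with Poly(I:C). Under normexp background correction the splits were 5 and 1 for acute CpG, 0 and 5 for LPS on re-stimulation, and 3 and 1 for Pam3CSK4 against naive.

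**Figure D1:**
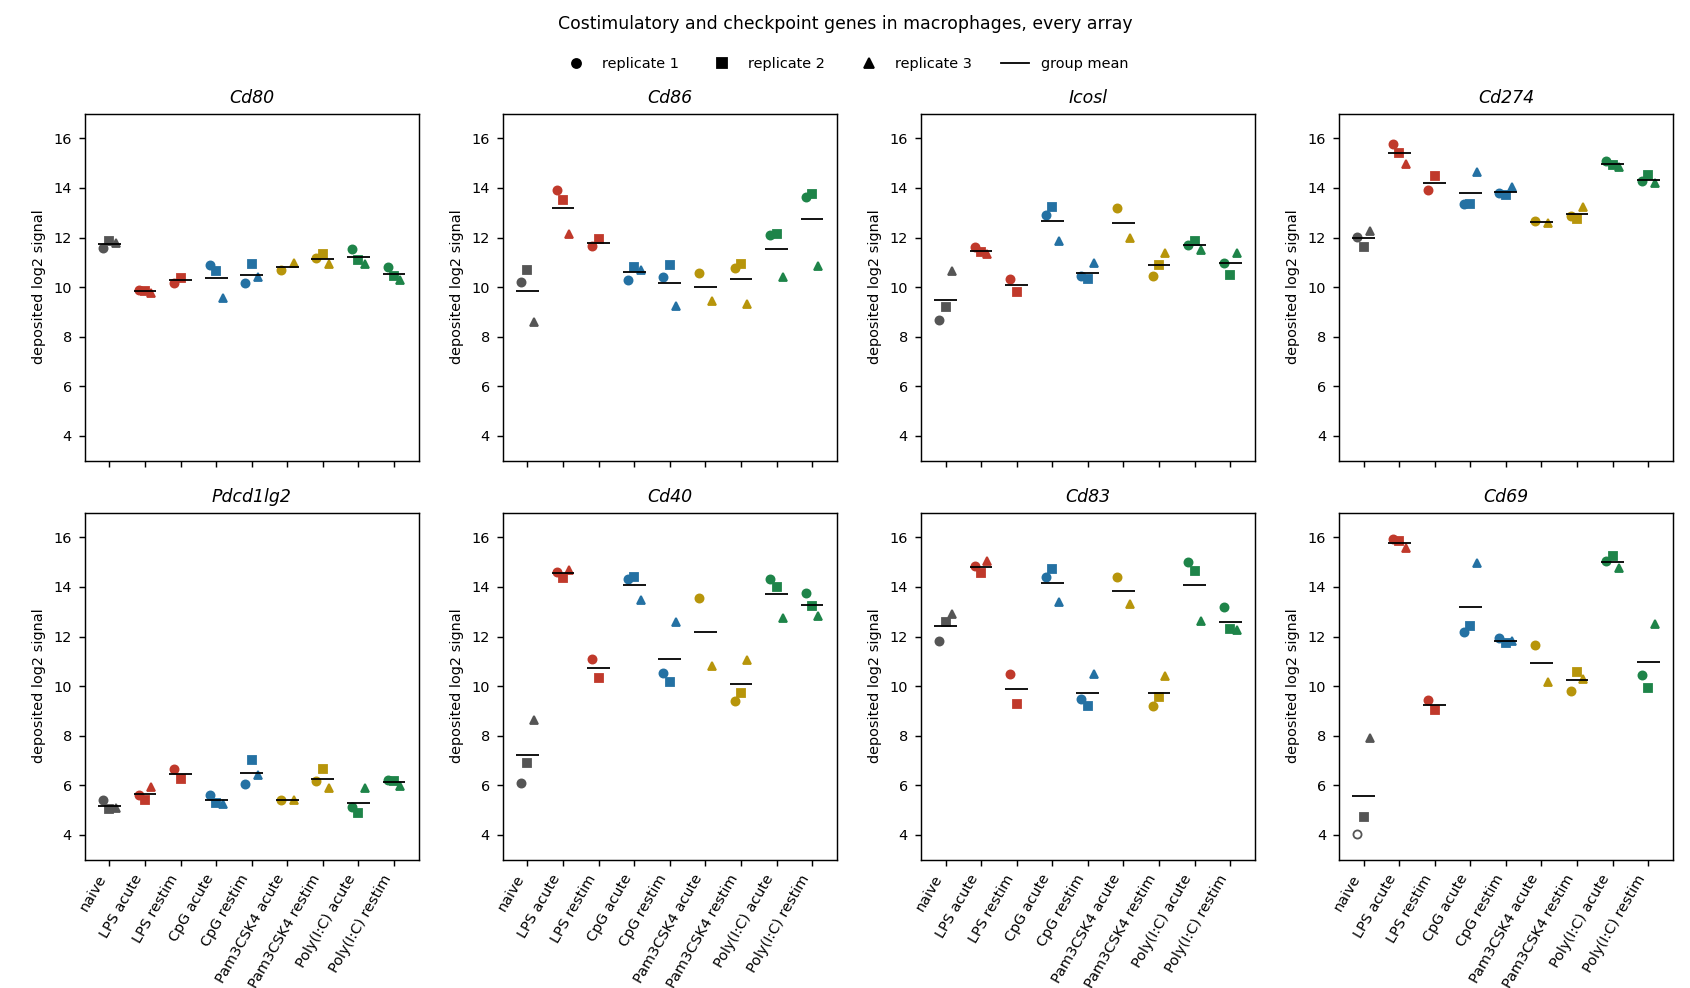
Deposited log2 signal (y) of the probe standing for each of the 8 genes on all 25 arrays (x, 9 groups), with replicate 1 as circles, 2 as squares and 3 as triangles, the group mean as a bar, and an open symbol where the probe was not well above background. Cd69 and Cd40 span the widest ranges, while Pdcd1lg2 stays between 4.89 and 7.00.

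Cd80 gave opposite results by probe. Probe A_55_P2001218 read 11.57, 11.86 and 11.77 in naive cells and 9.87, 9.85 and 9.77 after acute LPS, so every LPS array lay below every naive array. The fall was -1.90 ± 0.18 (SE) on the log2 scale, 3.73-fold, with an adjusted p of 0.0014 (limma), and it stayed called without any 1 array. Probe A_66_P130432 read 6.01, 6.33 and 4.55 in naive cells and 7.83, 7.48 and 7.81 after acute LPS, again without overlap but in the other direction. This rise was 2.08 ± 0.47, with an adjusted p of 0.0226 (limma), and the call was lost without any 1 of the LPS arrays (0.0634 to 0.0764). The mean of both probes differed by 0.09 (adjusted p = 0.828), and with each array scaled on its median the fall of A_55_P2001218 was -1.57 and not called (0.0875).

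With the other ligands neither Cd80 probe was called after the acute exposure. In A_55_P2001218 acute CpG read 10.90, 10.63 and 9.57, acute Pam3CSK4 10.69 and 10.95, and acute Poly(I:C) 11.54, 11.10 and 10.94, all below the lowest naive value of 11.57. These differences of -1.37, -0.91 and -0.54 were not called (adjusted p = 0.0916, 0.288 and 0.219, limma). In A_66_P130432 acute Poly(I:C) read 8.60, 8.21 and 5.81, a difference of 1.91 (adjusted p = 0.265), and acute CpG 7.14, 7.52 and 6.04, a difference of 1.28 (0.265), both overlapping the naive values. Acute Pam3CSK4 read 7.13 and 5.49 there, a difference of 0.68 (0.767), also with overlap. Replicate 3 was the lowest of its group in A_66_P130432 in all 7 groups outside acute LPS that have one.

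After re-stimulation A_55_P2001218 stayed below naive. LPS cells read 10.15 and 10.38, CpG cells 10.15, 10.91 and 10.40, and Poly(I:C) cells 10.83, 10.45 and 10.29, which are falls of -1.46 ± 0.20, -1.24 ± 0.24 and -1.21 ± 0.21 (adjusted p = 0.0304, 0.0272 and 0.0255, limma), and for Pam3CSK4 11.19, 11.33 and 10.93, a difference of -0.58 that was not called and turned to 0.06 under median scaling. No 1 of the 3 calls outlasted every left-out array: the LPS call went without naive replicate 1 or 2 or either LPS array (up to 0.278), the CpG call without naive replicate 1 or 2 or CpG replicate 1 or 3 (up to 0.0901), and the Poly(I:C) call without naive or Poly(I:C) replicate 1 or 2 (up to 0.104). The Poly(I:C) call was also lost with the replicate block (0.066). All 3 calls were lost under median scaling, at -0.81 with LPS, -0.16 with CpG and -0.39 with Poly(I:C) (0.84, 0.861 and 0.762), and with both probes averaged, at -0.21, -0.27 and 0.35 (0.723, 0.608 and 0.522), the last in the other direction. In A_66_P130432 re-stimulated Poly(I:C) read 7.89, 7.84 and 6.91, all above naive, by 1.92 (adjusted p = 0.0818; 0.0392 with the replicate block). Between acute and re-stimulated LPS, A_66_P130432 fell from 7.83, 7.48 and 7.81 to 6.62 and 6.74, by -1.03 ± 0.21 (adjusted p = 0.0137, lost without either re-stimulated array at 0.0653 and 0.0765), while A_55_P2001218 differed by 0.43 in the other direction without overlap (0.13).

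**Figure D2:**
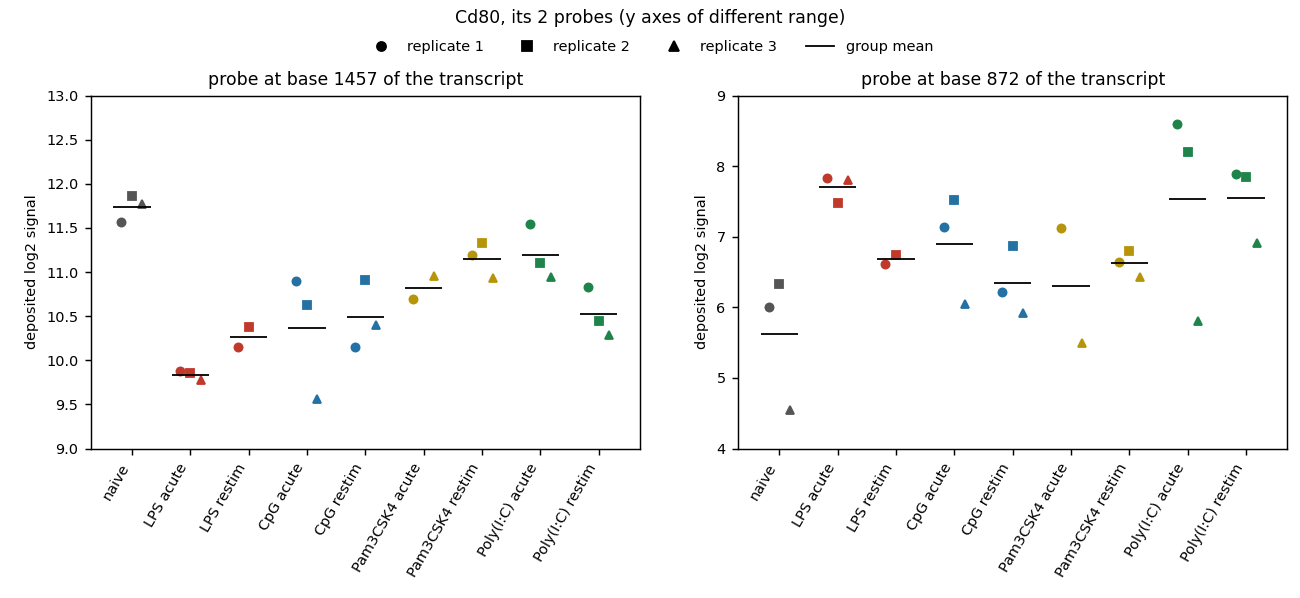
Deposited log2 signal (y) of both Cd80 probes on every array (x, 9 groups; symbols as replicates, bar as group mean), the probe at base 1457 on the left and the one at base 872 on the right, on axes of different range. The left probe is highest in naive cells at 11.6 to 11.9 and the right probe is lowest there on average, at 4.55 to 6.33.

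Cd86, the other CD28 ligand, was raised by acute LPS. It read 10.22, 10.71 and 8.60 in naive cells and 13.90, 13.53 and 12.13 after LPS, without overlap. The rise was 3.34 ± 0.68 on the log2 scale, 10.2-fold, with an adjusted p of 0.0156 (limma), and it was lost without LPS replicate 1 (0.058) or 2 (0.0619). Acute CpG read 10.30, 10.81 and 10.70 and acute Pam3CSK4 10.59 and 9.44, both overlapping naive cells. Within slides they lay above naive by 0.08 to 2.09 and by 0.36 and 0.84, and neither group difference was called (adjusted p = 0.475 and 0.946, limma). Acute Poly(I:C) read 12.09, 12.14 and 10.41, and its difference of 1.70 overlapped naive cells and was not called in the unpaired fit (0.235), but was called with the replicate block (0.03). Replicate 3 was the low one in both groups, and the within-slide differences were 1.43 to 1.87.

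Poly(I:C) was the ligand after which Cd86 read higher on re-stimulation on all 3 slides. The re-stimulated values were 13.62, 13.76 and 10.86, within-slide differences from acute Poly(I:C) of 0.45 to 1.62, although the difference of 1.20 was not called (adjusted p = 0.436, limma) and the groups overlapped. Against naive cells the difference was 2.90 ± 0.94 without overlap (adjusted p = 0.112; called at 0.0319 with the replicate block), with within-slide values of 2.26 to 3.40. Re-stimulated LPS read 11.66 and 11.92, lower than every acute LPS array by a mean of -1.40 (0.0811) and higher than every naive array by 1.95 (0.152), a difference that was called with the replicate block at 1.33 (0.0275), with within-slide values of 1.21 and 1.44. Re-stimulated CpG read 10.41, 10.89 and 9.22 and re-stimulated Pam3CSK4 10.78, 10.92 and 9.32, both overlapping naive. On each slide they lay above the naive array, by 0.18 to 0.62 with CpG and 0.21 to 0.72 with Pam3CSK4, and neither group difference was called. In the fit over all 9 groups Cd86 after re-stimulation was lower with CpG than with Poly(I:C) by -2.57 (0.0434) and lower with Pam3CSK4 than with Poly(I:C) by -2.41 (0.0457), calls that were lost on leaving out 13 and 16 of the 25 arrays in turn (at up to 0.242 and 0.226).

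Cd86 moved with the replicate number. Replicate 3 lay below the mean of replicates 1 and 2 in 6 of the 7 groups outside acute LPS, by up to -2.83, and above it by 0.14 in the remaining one, acute CpG. Those replicate 3 arrays are also the ones with a low mean granulocyte marker signal. On acute LPS arrays, whose mean granulocyte marker signal was as low, Cd86 was high. The acute LPS mean exceeded naive replicate 3 by 4.59, a gap that rests on 1 naive array of another slide. The part of granulocyte RNA in the Cd86 values was not tested.

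**Figure D3:**
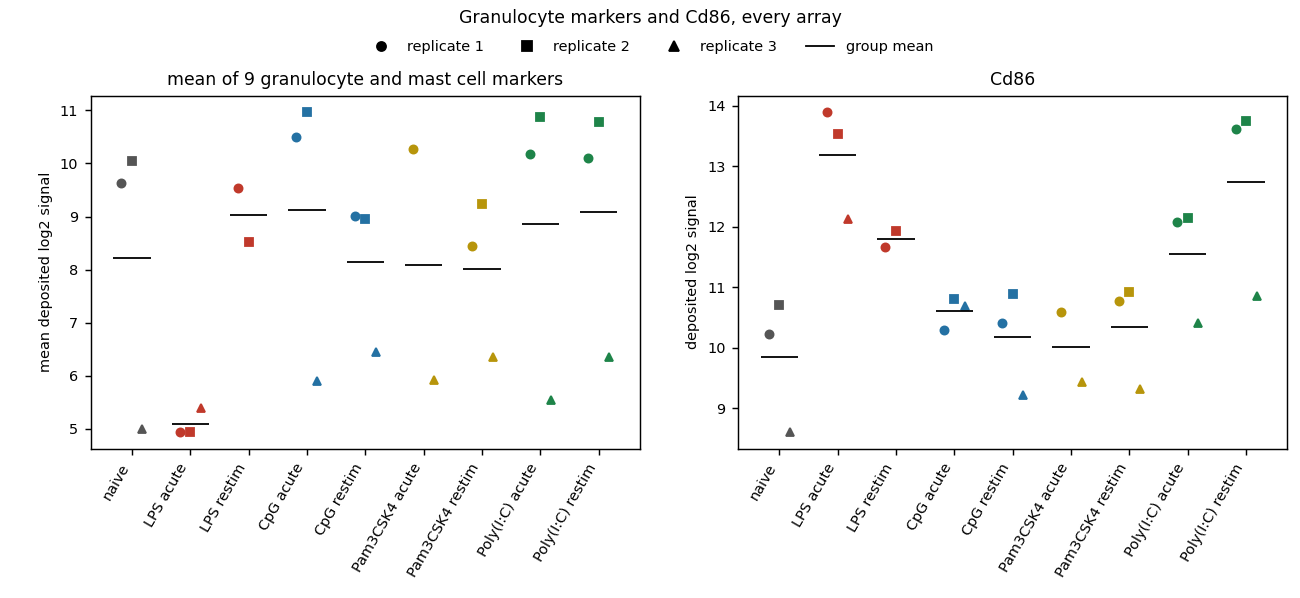
Mean log2 signal of 9 granulocyte and mast cell markers (left, y) and log2 signal of Cd86 (right, y) on every array (x, 9 groups; symbols as replicates, bar as group mean). On the left, replicate 3 and all acute LPS arrays sit at 4.93 to 6.45 and the rest at 8.44 to 11.0; on the right, replicate 3 is the lowest array in 7 of the 8 groups that have one.

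Icosl read higher after every acute stimulus, and the rise was called for LPS and CpG. Naive cells read 8.66, 9.19 and 10.64, acute LPS 11.62, 11.42 and 11.35, acute CpG 12.91, 13.22 and 11.84, acute Pam3CSK4 13.19 and 11.99, and acute Poly(I:C) 11.70, 11.84 and 11.50. No acute array overlapped the naive values. The rises were 1.97 ± 0.50 with LPS (adjusted p = 0.0317, limma) and 3.16 ± 0.61 with CpG (0.0408), and the differences 3.10 ± 0.71 with Pam3CSK4 (0.288) and 2.19 ± 0.51 with Poly(I:C) (0.0663). Both calls went on leaving out any 1 array but naive replicate 3, whose value is the highest of the naive arrays (up to 0.0985 for LPS and 0.147 for CpG), and the CpG call with the replicate block (0.099).

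On re-stimulation Icosl was lower than after the acute exposure with each ligand. Re-stimulated cells read 10.34 and 9.81 with LPS, 10.46, 10.33 and 10.96 with CpG, 10.44, 10.89 and 11.39 with Pam3CSK4, and 10.98, 10.49 and 11.40 with Poly(I:C), in no case overlapping the acute arrays of that ligand. The falls of -1.39 ± 0.24 with LPS (adjusted p = 0.00747, limma) and -2.07 ± 0.39 with CpG (0.045) were called, and the differences of -1.68 with Pam3CSK4 (0.236) and -0.73 with Poly(I:C) (0.152) were not. The LPS call was lost without re-stimulated replicate 2 (0.0531), and the CpG call without any 1 array but acute replicate 3 (up to 0.143) and with the replicate block (0.073). Every re-stimulated group overlapped the naive range, whose upper end is replicate 3 at 10.64. Within slides, however, each re-stimulated array lay above its naive array. The differences were 0.62 and 1.68 with LPS, 0.33 to 1.80 with CpG, 0.75 to 1.78 with Pam3CSK4 and 0.76 to 2.32 with Poly(I:C). None of the group differences from naive was called, though that with Poly(I:C) was in 5 of 15 alternatives of processing or left-out array.

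Cd274, encoding PD-L1, rose after acute LPS and Poly(I:C). Naive cells read 12.03, 11.62 and 12.28. Acute LPS read 15.78, 15.42 and 14.98 and acute Poly(I:C) 15.08, 14.93 and 14.85, rises of 3.42 ± 0.29 (10.7-fold, adjusted p = 0.00112, limma) and 2.97 ± 0.22 (7.86-fold, 0.00343), and both stayed called without any 1 array. Acute CpG read 13.35, 13.36 and 14.63, a difference of 1.80 (0.0611), and acute Pam3CSK4 12.68 and 12.58, a difference of 0.65 (0.418), neither overlapping naive. The ligands differed among themselves: in the fit over all 9 groups acute LPS exceeded acute CpG by 1.61 (0.00139) and acute Pam3CSK4 by 2.76 (2.95e-05), and relative to acute Poly(I:C) Pam3CSK4 stood at -2.32 (0.000181) and CpG at -1.17 (0.0268). Of these calls, 3 stayed without any 1 of the 25 arrays, and the difference between CpG and Poly(I:C) was lost without replicate 1 or 2 of either group (up to 0.172).

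Re-stimulated cells of every group read above naive cells for Cd274. Re-stimulated LPS read 13.90 and 14.48, CpG 13.78, 13.72 and 14.06, Pam3CSK4 12.85, 12.76 and 13.24, and Poly(I:C) 14.30, 14.51 and 14.21, every array above every naive array. Against naive cells the rises were 2.21 ± 0.31 with LPS (adjusted p = 0.031, limma), 1.88 ± 0.23 with CpG (0.00965) and 2.36 ± 0.23 with Poly(I:C) (0.00767), and the difference was 0.97 ± 0.25 with Pam3CSK4 (0.0771). The CpG and Poly(I:C) rises stayed called without any 1 array, and the LPS rise was lost without naive replicate 1 or 2 or either LPS array (up to 0.282). Relative to the acute exposure Cd274 fell by 1.20 on the log2 scale with LPS (0.0296; lost without either re-stimulated array or without acute replicate 1 or 2, at up to 0.154), and the difference with Poly(I:C) was -0.62 (0.0884) without overlap. With CpG, acute and re-stimulated values overlapped.

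Pdcd1lg2, encoding PD-L2, was higher after re-stimulation. Naive cells read 5.39, 5.02 and 5.07. Acute arrays read 5.59, 5.41 and 5.92 with LPS, 5.61, 5.30 and 5.26 with CpG, 5.39 and 5.40 with Pam3CSK4, and 5.11, 4.89 and 5.87 with Poly(I:C), and the 4 acute differences of 0.13 to 0.48 were not called (adjusted p = 0.153 to 0.829, limma). Re-stimulated arrays read 6.64 and 6.24 with LPS, 6.03, 7.00 and 6.43 with CpG, 6.19, 6.66 and 5.89 with Pam3CSK4, and 6.22, 6.16 and 5.96 with Poly(I:C). For each ligand, every re-stimulated array lay above every naive array and above every acute array of that ligand.

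The Pdcd1lg2 rise against naive cells was 1.28 ± 0.23 with LPS (adjusted p = 0.0492, limma), 1.33 ± 0.28 with CpG (0.0344) and 0.95 ± 0.19 with Poly(I:C) (0.0342), and the difference with Pam3CSK4 was 1.09 ± 0.25 (0.0658). Against the acute exposure the rise of 0.80 ± 0.25 with LPS was called (0.0485), and the differences of 1.10 with CpG (0.0814), 0.85 with Pam3CSK4 (0.299) and 0.82 with Poly(I:C) (0.136) were not. Every one of the 4 calls was near the threshold and was lost without any 1 array of several: naive replicate 1 or 2 for each call against naive, acute LPS replicate 1 or 2 for the call against acute LPS, both re-stimulated LPS arrays, all 3 CpG arrays and Poly(I:C) replicates 1 and 2 (up to 0.282). With the replicate block the CpG and Poly(I:C) calls against naive were lost (0.0777 and 0.0591). The overlapping second probe A_55_P2187141 gave rises of 2.11 for re-stimulated CpG against naive (0.0245) and 1.54 against acute CpG (0.034), and was not called with the other ligands. Under normexp background correction, which treats dim signals differently, the differences with LPS, CpG and Poly(I:C) against naive were 0.57, 0.59 and 0.34 and none was called (0.0505 to 0.103). Under median scaling the CpG call stayed (0.0486) and those with LPS (0.534) and Poly(I:C) (0.294) against naive were lost, as was that against acute LPS (0.141).

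Cd40 rose strongly with LPS, CpG and Poly(I:C). Naive cells read 6.10, 6.91 and 8.65, acute LPS 14.62, 14.36 and 14.68, acute CpG 14.33, 14.42 and 13.48, and acute Poly(I:C) 14.32, 14.02 and 12.77. The rises were 7.33 ± 0.62 with LPS (161-fold, adjusted p = 0.00114, limma), 6.86 ± 0.67 with CpG (116-fold, 0.00957) and 6.48 ± 0.74 with Poly(I:C) (89.4-fold, 0.0115). The LPS rise stayed called without any 1 array, while the CpG and Poly(I:C) rises were lost without naive replicate 2 or without their own replicate 1 or 2 (up to 0.0626 and 0.068), and the Poly(I:C) rise also with the replicate block (0.0541). Acute Pam3CSK4 read 13.56 and 10.81, above all naive arrays by 4.97 ± 1.11 and not called (0.288).

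On re-stimulation Cd40 fell with LPS. LPS re-stimulated cells read 11.10 and 10.32, a fall of -3.84 ± 0.29 from acute LPS (14.3-fold, adjusted p = 0.000619, limma) that stayed called without any 1 array. With CpG the values were 10.54, 10.17 and 12.58, a difference of -2.98 (0.0573) without overlap, and with Pam3CSK4 9.40, 9.73 and 11.07, a difference of -2.12 (0.388) with overlap. With Poly(I:C) the values were 13.75, 13.22 and 12.81, overlapping the acute arrays at a difference of -0.44 (0.58), and re-stimulated Poly(I:C) stayed above naive by 6.04 ± 0.67 (65.9-fold, 0.00938; 0.0518 without its replicate 1). CpG re-stimulated cells were above naive by 3.88 ± 0.87 (0.0385; lost without any 1 array but naive replicate 3, at up to 0.11), and LPS and Pam3CSK4 re-stimulated cells by 3.49 (0.0743) and 2.85 (0.0821), without overlap. The difference with LPS was called with the replicate block at 4.21 (0.02), and the within-slide differences were 3.41 or more. Of the 6 pairs of ligands, 1 was called among re-stimulated groups, where Pam3CSK4 was below Poly(I:C) by -3.20 (0.00806; 0.053 without Poly(I:C) replicate 1), but the change from acute to re-stimulated did not differ between LPS and Poly(I:C) at the threshold, at -3.40 ± 1.10 (0.0924).

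Cd83 rose after acute LPS and, on re-stimulation with LPS, CpG or Pam3CSK4, read below its naive level. Naive cells read 11.83, 12.57 and 12.91 and acute LPS 14.83, 14.55 and 15.04, a rise of 2.37 ± 0.32 (5.16-fold, adjusted p = 0.00427, limma) that stayed called without any 1 array. Acute CpG read 14.40, 14.73 and 13.39, acute Pam3CSK4 14.41 and 13.30, and acute Poly(I:C) 15.00, 14.63 and 12.65, differences of 1.73 (0.0817), 1.42 (0.361) and 1.65 (0.22) that were not called, the last with overlap.

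Re-stimulated cells read 10.47 and 9.28 for Cd83 with LPS, 9.48, 9.18 and 10.47 with CpG, and 9.18, 9.54 and 10.42 with Pam3CSK4, all below the lowest naive array. From the acute level these were falls of -4.93 ± 0.38 with LPS (30.4-fold, adjusted p = 0.000679, limma) and -4.46 ± 0.46 with CpG (22.0-fold, 0.0155) and a difference of -4.14 ± 0.50 with Pam3CSK4 (0.142). The LPS fall stayed called without any 1 array, and the CpG fall was lost without acute or re-stimulated replicate 1 or 2 (up to 0.0652). Against naive cells the differences were -2.56 with LPS (0.056), -2.73 with CpG (0.0175; lost without naive replicate 2 or CpG replicate 1 or 2, at up to 0.0706) and -2.72 with Pam3CSK4 (0.031; lost without naive or Pam3CSK4 replicate 1 or 2, at up to 0.122, and at 0.0546 with the replicate block).

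Poly(I:C) differed for Cd83. Re-stimulated cells read 13.19, 12.30 and 12.26, overlapping both the acute Poly(I:C) arrays (difference -1.51, adjusted p = 0.201, limma) and the naive arrays (difference 0.15, 0.843). In the fit over all 9 groups the re-stimulated level was lower than with Poly(I:C) by -2.71 with LPS (0.0339), by -2.87 with CpG (0.0043) and by -2.87 with Pam3CSK4 (0.00244), and the latter 2 calls stayed without any 1 array, while the LPS call was lost without replicate 1 or 2 of either group (up to 0.535). The change from acute to re-stimulated was more negative with LPS than with Poly(I:C) by -3.42 ± 0.84 (0.0339), a call lost on leaving out 8 of the 25 arrays in turn, which are the 5 LPS arrays, acute Poly(I:C) replicate 3 and re-stimulated Poly(I:C) replicates 1 and 2 (up to 0.181).

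Cd69 had the largest acute difference of the 8 genes with each ligand. Naive cells read 4.04, 4.70 and 7.92, and the lowest was not well above background, so 2 of 3 naive arrays measured it. Acute LPS read 15.95, 15.85 and 15.57 and acute Poly(I:C) 15.04, 15.25 and 14.78, rises of 10.24 ± 0.97 (adjusted p = 0.00146, limma) and 9.47 ± 1.00 (0.00931). Acute CpG read 12.20, 12.42 and 14.96, a rise of 7.64 ± 1.22 (0.0282), and acute Pam3CSK4 11.67 and 10.18, a difference of 5.37 ± 1.29 (0.288). No acute array overlapped the naive range. The LPS rise stayed called without any 1 array, the Poly(I:C) rise was lost without its replicate 1 or 2 (up to 0.0589) and the CpG rise without any 1 array but naive replicate 3 (up to 0.113).

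Among acute groups Cd69 was higher with LPS than with Pam3CSK4 by 4.87 (adjusted p = 0.00119, limma), a call that stayed without any 1 array, and higher with LPS than with CpG by 2.60 (0.0377; lost without any 1 LPS array or CpG replicate 1 or 2, at up to 0.162). It was lower with Pam3CSK4 than with Poly(I:C) by -4.10 (0.00953; 0.158 without Pam3CSK4 replicate 3). Naive replicate 3 had a mean granulocyte marker signal near that of the acute LPS arrays. It lay 7.87 below the acute LPS mean for Cd69 and 5.90 below it for Cd40. For Cd274, Cd83 and Icosl that gap was 3.11, 1.89 and 0.83, and for Cd80 the LPS mean was lower by -1.94. These gaps rest on 1 naive array, of another slide and with 74.9% of its probes well above background. The part of granulocyte RNA in them was not tested.

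From its acute level Cd69 fell further with LPS than with CpG or Pam3CSK4, where acute and re-stimulated LPS arrays lie on different slides. Among re-stimulated groups no pair of ligands was called for Cd69. The values were 9.45 and 9.03, a fall of -6.55 ± 0.24 from acute LPS (93.9-fold, adjusted p = 0.000154, limma) that stayed called without any 1 array. With Poly(I:C) they were 10.45, 9.93 and 12.51, a fall of -4.06 ± 0.65 (16.7-fold, 0.0317; lost without acute or re-stimulated replicate 1 or 2, at up to 0.117). With CpG they were 11.95, 11.75 and 11.81, a difference of -1.36 (0.317), and with Pam3CSK4 9.82, 10.58 and 10.29, overlapping the acute arrays. The change was more negative with LPS than with CpG by -5.19 ± 1.24 (0.0219) and than with Pam3CSK4 by -5.86 ± 1.31 (0.0145), while the difference to Poly(I:C) of -2.49 ± 1.24 was not called (0.28). The first of these was lost without either re-stimulated LPS array or acute CpG replicate 1 or 2 (up to 0.102), and the second without re-stimulated LPS replicate 2 or acute Pam3CSK4 replicate 3 (up to 0.0673).

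Re-stimulated Cd69 remained above every naive array with each ligand. The rises over naive were 6.28 ± 0.98 with CpG (adjusted p = 0.0169, limma) and 5.41 ± 1.18 with Poly(I:C) (0.0446), and the differences 4.68 ± 1.00 with Pam3CSK4 (0.0537) and 3.68 ± 1.22 with LPS (0.144). With the replicate block the difference with LPS was called at 4.87 (0.0131), with within-slide values of 4.32 and 5.41. The CpG call was lost without naive replicate 2 or any 1 CpG array (up to 0.069) and the Poly(I:C) call without any 1 array but naive replicate 3 (up to 0.134).

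Over the between-ligand contrasts, 6 pairs of ligands were compared for each of the 8 genes, which is 48 tests for the acute levels, 48 for the re-stimulated levels and 48 for the change on re-stimulation. Calls numbered 11, 7 and 3. Of all 30814 probes, acute LPS differed in 15.5% from CpG, in 17.6% from Pam3CSK4 and in 10.7% from Poly(I:C), acute CpG in 0.0292% from Pam3CSK4 and in 3.92% from Poly(I:C), and acute Pam3CSK4 in 6.48% from Poly(I:C). Among re-stimulated groups the shares in the same order of pairs were 0.0227%, 1.06%, 1.49%, 0.11%, 6.89% and 10.1%, and for the change on re-stimulation 6.35%, 7.2%, 3.61%, 0.00325%, 0.0357% and 0.101%. The acute calls not given above were in Cd86, higher with LPS than with CpG by 2.59 (adjusted p = 0.0238, limma; lost without replicate 1 or 2 of either group, at up to 0.0934) and than with Pam3CSK4 by 3.18 (0.0124; 0.14 without Pam3CSK4 replicate 3), and in Cd80, lower with LPS than with Poly(I:C) by -1.36 (0.00405) and than with Pam3CSK4 by -0.99 (0.0311; lost without any 1 array of either group, at up to 0.199). Both Cd80 calls are of probe A_55_P2001218. With both probes averaged they were lost, at -0.60 for LPS minus Poly(I:C) (0.366) and 0.20 for LPS minus Pam3CSK4 (0.812). In A_66_P130432 the acute means were 7.71 with LPS, 7.54 with Poly(I:C) and 6.31 with Pam3CSK4. The remaining call on re-stimulation was Cd274, lower with Pam3CSK4 than with Poly(I:C) by -1.39 (0.00404), which stayed without any 1 array. Of the 7 calls between re-stimulated groups all set Poly(I:C) above LPS, CpG or Pam3CSK4. Every acute call with LPS also compares different slides.

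The order of the group means, read from the highest, was led by acute LPS for Cd40, Cd86, Cd274, Cd83 and Cd69, by acute CpG for Icosl, by re-stimulated CpG for Pdcd1lg2 and by naive cells for Cd80. For Cd40, neighbours overlapped in the order from acute LPS (14.55 ± 0.17, SD) to re-stimulated Pam3CSK4 (10.07 ± 0.88), and naive cells (7.22 ± 1.30) stood apart from that group. For Cd69, acute LPS (15.79 ± 0.20) stood apart from acute Poly(I:C) (15.02 ± 0.23), which overlapped acute CpG (13.19 ± 1.54). The lowest, naive cells (5.56 ± 2.08), stood apart from re-stimulated LPS (9.24 ± 0.30). For Cd86 every neighbouring pair overlapped, from acute LPS (13.19 ± 0.93) to naive (9.84 ± 1.10). For Cd83 the breaks lay between acute Pam3CSK4 (13.86 ± 0.78) and re-stimulated Poly(I:C) (12.58 ± 0.52) and between naive (12.44 ± 0.55) and re-stimulated LPS (9.88 ± 0.84).

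Other genes of costimulation were read from a list of 59 on the array, which covers relatives of the B7 family, receptors of the 8 molecules, TNF superfamily ligands, inhibitory ligands and receptors, adhesion and SLAM molecules, and genes of CD40 signalling and PD-L1 turnover. Acute LPS raised 22 and lowered 3 of the 49 tested, beside 26.5% of all probes called. Acute CpG raised 11 and lowered 2 of 47 (all probes 5.72%), acute Poly(I:C) raised 6 and lowered 1 of 48 (6.03%), and acute Pam3CSK4 gave 0 calls of 45 (0%). On re-stimulation LPS gave 10 higher and 18 lower of 48 (34.2%), CpG 2 and 5 of 45 (3.56%), Poly(I:C) 3 and 2 of 49 (4.93%), and Pam3CSK4 0 of 42 (0%). The median log2 difference of the tested genes was 0.78 with acute LPS, 0.28 with CpG, 0.08 with Pam3CSK4 and 0.44 with Poly(I:C), beside -0.01, -0.07, 0.01 and -0.10 over all probes. On re-stimulation against acute the medians were -0.33, -0.52, -0.32 and 0.07 in the same order, beside -0.02, 0.06, 0.02 and 0.0021 over all probes. Each gene of the list counts once, by its tested probe with the highest mean signal. The shares and medians over all probes take every tested probe.

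Tnfsf15, the TNF family ligand TL1A that costimulates T cells, had the largest rise of these after acute LPS and CpG, from a naive mean of 6.81 to 14.5 (7.69 ± 0.72, adjusted p = 0.00142, limma) and to 11.6 (4.82 ± 0.83, 0.0318), and rose with Poly(I:C) by 4.08 (0.0353). Vcam1, an adhesion molecule, rose by 4.66 with acute LPS (0.00094). Tnfsf9, the ligand of 4-1BB, rose by 4.79 with acute CpG (0.00649), and Traf1, an adaptor of TNF receptors, by 3.15 with acute Poly(I:C) (0.0463). S1pr1, which encodes the receptor that CD69 binds, fell by 4.27 with acute LPS (0.0101). The inhibitory receptor gene Havcr2 fell by 2.54 with acute LPS (0.0333), and Map3k14, the NF-kB inducing kinase of CD40 signalling, fell by 1.40 with CpG (0.0288) and by 1.28 with Poly(I:C) (0.0339). The gene listed as 4632428N05Rik, now Vsir, a B7 relative, fell by 1.20 with CpG (0.0422). The calls of these named genes, here and on re-stimulation, were not tried without single arrays or with the replicate block. Those that involve acute LPS also compare different slides.

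On LPS re-stimulation Tnfsf15 fell from 14.5 to 9.93 (-4.57 ± 0.44, adjusted p = 0.00123, limma), and Tnfsf18, the ligand of GITR, fell at least 13.1-fold (0.005), from a mean of 6.25 to a measured mean of 2.47 that was not well above background on either re-stimulated array. That bound sets the re-stimulated arrays at the lowest signal that was well above background on each of them, where this was the higher value. S1pr1 rose by 3.75 (0.0026) and the butyrophilin gene Btn1a1 by 3.52 (0.000295). With CpG, Vcam1 fell by 4.53 (0.031) and the adhesion molecule gene Icam1 by 2.06 (0.026), while Btn1a1 rose by 2.19 (0.0496) and Slamf6, a homotypic SLAM receptor, by 1.91 (0.0441). With Poly(I:C), Cmtm6, which protects PD-L1 from degradation, fell by 1.67 (0.0255) and Cd200r1, an inhibitory receptor of myeloid cells, by 1.12 (0.0454), while Slamf6 rose by 1.84 (0.0275) and Map3k14 by 1.62 (0.0201).

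The genes whose 9 group means ran most like each member were taken from 21171 probes by Pearson correlation, as a description over 9 points that share the same arrays. They were Zfp800 (0.9911), 4930529F24Rik (0.9828) and Map2k4 (0.9747) for Cd69, Peli1 (0.9875), Pnp (0.9858) and BC006779 (0.9823) for Cd274, and Pcsk1 (0.986), LOC100316870 (0.9777) and Ddhd1 (0.9739) for Cd83. For Cd86 they were 4933412E12Rik (0.9827), Itih1 (0.979) and Csprs (0.9732), for Pdcd1lg2 Gm5077 (0.9871), Slamf6 (0.9827) and Cox17 (0.9758), and for Cd40 Arhgef3 (0.973), Stx11 (0.9712) and Larp1 (0.9639). For Icosl they were Ralgapa2 (0.9736), Phldb1 (0.9732) and Eps15l1 (0.9654), and for Cd80 Cln6 (0.9718), Ccs (0.9671) and Hdac6 (0.9526). Among the 8 genes the highest correlation was that of Cd40 with Cd69 (0.912) and the lowest that of Pdcd1lg2 with Cd83 (-0.822), and Cd274 and Pdcd1lg2 stood at 0.19.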

How the data were processed

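RNA from the cultures was hybridised to single-colour Agilent arrays, and the scanner intensities were deposited per array (Agilent Feature Extraction 10.7.3.1). The authors corrected these for background by RMA, normalised by quantiles and deposited log2 values for 25 arrays, having left out 2 of low quality. These log2 values were used as deposited. Rebuilding them from the deposited intensities gave a median absolute difference of 0.0355. Groups were compared pairwise with limma 3.58.1 in R 4.3.3 over probes that the scanner software flagged as well above background on 2 or more arrays of 1 of the groups, and ligands in 1 fit of all 9 groups. Quantile normalisation sets all arrays to the same distribution, and the number of arrays limits the precision. The series describes independent experiments. The methods say in one place that biological replicates came from different mice. In another they say that marrow of 3 mice was pooled for a culture, with a separate pool per replicate. Which arrays share a pool is not otherwise identified. The 8 genes and the gene lists were chosen with earlier results of these data known. The genes named beside the 8 are the most strongly changed calls of the list in each direction and the 3 most alike in pattern. Replicate number and slide coincide outside acute LPS, and the block on this number is given beside results there where it changed a call. Correlations between same-numbered arrays in their deviations from the group mean, over 25359 probes, were 0.314 to 0.398 for naive and acute CpG, 0.43 to 0.517 for naive and acute Poly(I:C), 0.0499 to 0.127 for naive and re-stimulated LPS (2 pairs), and 0.0239 to 0.0349 for naive and acute LPS. Alternatives covered scaling, background, filter, model, probe choice, all 27 arrays and each left-out array.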

Additional observations from a re-analysis of the deposited data

Results flagged for a closer look

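The change of Cd69 from acute to re-stimulated cells differed between ligands, being more negative with LPS than with CpG by -5.19 ± 1.24 (adjusted p = 0.0219, limma) and than with Pam3CSK4 by -5.86 ± 1.31 (0.0145). The change of Cd83 was more negative with LPS than with Poly(I:C) by -3.42 ± 0.84 (0.0339). Each rests on acute LPS arrays from slides of their own, so that slide and stimulus cannot be told apart.

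The 2 arrays without deposited values gave signals on both sides of the naive range when rebuilt with the other arrays from the intensities. Acute Pam3CSK4 replicate 2 had 99.9% of its probes well above background, 22.6% of its spots flagged as non-uniform and a median signal of 1855.5. Re-stimulated LPS replicate 3 had 92.4%, 0.155% and 315. Median signals on the other arrays were 51 to 106. The values of these 2 arrays are therefore given as a description only, and the first gave none for Cd80. For Cd40, re-stimulated LPS replicate 3 read 11.81 and acute Pam3CSK4 replicate 2 read 11.53, where naive cells spanned 6.33 to 8.79. For Icosl the same arrays read 11.32 and 12.50. Re-stimulated LPS replicate 3 read 13.66 for Cd274 and 8.67 for Cd69, and acute Pam3CSK4 replicate 2 read 13.95 for Cd83, all above the naive range. Below it lay Cd80 (10.58), Cd86 (8.40), Pdcd1lg2 (4.39) and Cd83 (10.60) on re-stimulated LPS replicate 3, and Cd86 (4.11), Cd274 (9.36) and Pdcd1lg2 (4.12) on acute Pam3CSK4 replicate 2, whose Cd69 (6.57) was within it. No array was set apart within a group for its value, since groups of 2 or 3 are too small for that test.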

How the results depend on the processing

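Of 37 calls in the 8 genes, 11 stayed past the threshold without any 1 array, as did 8 of 21 between ligands and 0 of 4 in second probes. Without 1 array in turn the calls among the 8 genes numbered 5 to 7 after acute LPS, 0 to 3 after CpG, 0 to 2 after Pam3CSK4 and 1 to 4 after Poly(I:C). On re-stimulation against acute they numbered 3 to 7 with LPS, 0 to 2 with CpG, 0 throughout with Pam3CSK4 and 0 to 3 with Poly(I:C). Against naive they numbered 0 to 8, 1 to 7, 0 to 5 and 1 to 6. Between ligands they numbered 8 to 13 for acute levels, 3 to 7 for re-stimulated levels and 0 to 5 for the change. Cd83 in re-stimulated Poly(I:C) against naive ran from -0.16, without replicate 1 of either group, to 0.38.

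For acute CpG (3 calls) median scaling gave 5, normexp 6, no detection filter 1, and 1 fit of all 9 groups, with or without slide as a random block, 6. For acute Pam3CSK4 (0) median scaling and both such fits gave 3, and for acute Poly(I:C) (3) median scaling and the slide block gave 6. On re-stimulation against acute, LPS (6) had 3 under median scaling and with all 27 arrays. CpG (2) had 4 under median scaling and both fits of 9 groups and 1 with no filter. Pam3CSK4 (0) had 1 under median scaling, 1 in the fit of 9 groups and 2 with the slide block. Poly(I:C) (1) had 0 with no filter and 2 in both fits. Against naive, LPS (3) had 5 with normexp, 0 with no filter or all 27 arrays and 6 in both fits. CpG (6) had 3 and Poly(I:C) (5) had 2 with no filter. Pam3CSK4 (1) had 4 under median scaling and normexp, 0 with no filter, 6 in both fits and 3 with probes averaged. Between ligands, acute levels (11) had 7 with all 27 arrays, re-stimulated levels (7) had 4 under median scaling and no filter and 3 with all 27 arrays, and the change (3) had 1 with all 27 arrays. The causes were not tested.

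Averaging the probes turned Cd80 to 0.090 for acute LPS, 0.69 for acute Poly(I:C), 0.21 and 0.35 for re-stimulated Pam3CSK4 and Poly(I:C) against naive, and 0.20 for acute LPS minus Pam3CSK4. Median scaling turned Cd80 to 0.060 for re-stimulated Pam3CSK4 against naive, and all 27 arrays turned Cd274 to -0.46 for acute Pam3CSK4.

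With the replicate block, re-stimulated CpG against acute had 1 call, re-stimulated LPS against naive 6, re-stimulated Pam3CSK4 against naive 0, and the change between ligands 5. The calls gained for the change were Cd274 with LPS minus Pam3CSK4 (-1.50, adjusted p = 0.0461) and Cd86 with LPS minus Poly(I:C) (-3.10, 0.00717), and acute levels gained Cd40 with LPS minus Pam3CSK4 (0.0497) and Cd86 with LPS minus Poly(I:C) (0.00837). With acute LPS, whose numbers do not pair it with other groups, the block lost Icosl (0.0639) and the second Cd80 probe (0.0519) against naive, and it gained Cd86 for re-stimulated against acute LPS (0.0151). Beyond these and the changes given beside the results, it changed no other call among the results given here.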
